A study of Mus musculus with 6 samples.

Results

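The axon guidance genes of the mouse liver were followed in 6 RNA-Seq libraries, each from the liver of a different mouse. The genes were taken by family name, as every semaphorin, plexin, neuropilin, Slit, Robo, ephrin, Eph receptor, netrin and Unc5 gene symbol in the count table, which gave 67 of 52459 genes. These families were chosen with earlier results of these data known. Of these, 58 had enough reads to be tested. All mice were male C57BL6J mice of the Alb-Cre/Cas9 F1 generation, in which the albumin promoter drives Cre and Cre switches on the Cas9 nuclease in hepatocytes. At 4 to 5 weeks of age, 3 mice received AAV8-U6-sgCtrl, an adeno-associated virus with a control guide RNA (sgCtrl, mice 5.1, 7.1 and 7.2), and 3 mice received AAV8-U6-sgPrdx2, with a guide RNA against the peroxidase gene Prdx2 (sgPrdx2, mice 1.1, 1.3 and 3.2). Diethylnitrosamine (DEN), a liver carcinogen, followed 3 weeks later at 100 mg/kg in both groups, which then lived for 6 months on CDAHFD, a high-fat diet that lacks choline, so that no untreated liver is part of the comparison. RNA was taken from whole liver at 8 months of age. Editing was limited to hepatocytes that took up the vector, whereas the RNA came from all cells of the liver. The comparison asks how the RNA of each guidance gene differed between diseased livers with and without hepatocyte Prdx2 targeting.

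Guidance genes are named for steering growing axons. Semaphorins are secreted or membrane-bound ligands of plexins, and most secreted class 3 semaphorins need a neuropilin as co-receptor. Ephrins are tethered to the cell surface and signal through Eph receptor tyrosine kinases on the neighboring cell, with signals running back into the ephrin-bearing cell. Slits are secreted ligands of Robo receptors, and netrins bind Dcc, neogenin and Unc5 receptors. Outside the nervous system these families act in vessel patterning, immune cell contacts, epithelial boundaries and tissue repair, and in the liver they are expressed by hepatocytes, endothelial cells, bile duct cells, stellate cells and leukocytes.

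Total counts were between 37462102 and 46753629 in the sgCtrl livers and between 40454021 and 56865293 in the sgPrdx2 livers, and 3 counts stand for 0.0555 to 0.0921 normalized CPM (counts divided by the scaled library total), which covers counting error only. The RNA of Prdx2 itself averaged 119 ± 11.6 CPM in the control livers, against 120 ± 26.1 CPM in the targeted livers (SD, n = 3 each, log2 fold change 0.01, adjusted p = 0.983, edgeR quasi-likelihood test), so that the RNA level neither separates the groups nor checks their labels. The hepatocyte markers were high in every library, with albumin at 6.61% to 7.01% of the counts in sgCtrl and 9.28% to 11.3% in sgPrdx2 livers.

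Nrp2, Plxna1 and Sema4d were the guidance genes called lower in sgPrdx2 livers by edgeR with TMM normalization and its filter on low counts, the setting meant wherever a call is given without another. Nrp2 is a co-receptor for class 3 semaphorins and for vascular endothelial growth factors of lymphatic vessels, Plxna1 is a plexin that pairs with neuropilins, and Sema4d is a membrane semaphorin of leukocytes that binds Plxnb1. They made up 5.17% of the 58 tested members, against 3.33% of all 17032 tested genes, and of all genes 1.54% were called lower and 1.79% higher. Counted in either direction, the share of members called was close to that of all genes in that setting. No member was called higher in it (6 were higher at an unadjusted p under 0.05), although DESeq2 and the length and GC correction called 2 members higher and edgeR without a filter 1.

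Nrp2 lies at chr1:62703285-62818695 on the plus strand of GRCm38, and its levels were 33.9, 33.5 and 30.6 CPM in sgCtrl livers 5.1, 7.1 and 7.2 and 20.4, 20.4 and 19.1 CPM in sgPrdx2 livers 1.1, 1.3 and 3.2. Every sgPrdx2 liver was below every sgCtrl liver, and the livers of each group lay close together. The mean was 32.7 ± 1.78 CPM against 19.9 ± 0.752 CPM (SD, n = 3 each), a log2 fold change of -0.71 (SE 0.11, adjusted p = 0.0358, edgeR). Plxna1, at chr6:89316314-89362620 on the minus strand, had 56.3, 54.5 and 46.4 CPM in the sgCtrl livers and 31.0, 32.9 and 28.4 CPM in the sgPrdx2 livers. The groups did not overlap, and the fitted log2 fold change was -0.77 (SE 0.13, adjusted p = 0.0373, edgeR). Exons of Gm26811 on the other strand cover 10.7% of the exon length of Plxna1, and since the strand setting of the counting is not given in the sources used here, reads of that stretch cannot be assigned with certainty. Sema4d, at chr13:51685529-51793747 on the minus strand, had 45.0, 39.4 and 35.9 CPM in the sgCtrl livers and 22.9, 24.1 and 17.9 CPM in the sgPrdx2 livers. Here too the groups did not overlap, with a log2 fold change of -0.89 (SE 0.15, adjusted p = 0.0394, edgeR). The calls of all 3 genes were lost when any 1 of sgCtrl livers 5.1, 7.1 and 7.2 or sgPrdx2 livers 1.1 and 1.3 was left out, with adjusted p of 0.0558 to 0.144 for Nrp2, 0.0597 to 0.147 for Plxna1 and 0.0584 to 0.144 for Sema4d, and were kept without sgPrdx2 liver 3.2. Without sgCtrl liver 5.1 or 7.2 or sgPrdx2 liver 1.1 or 1.3, 0 of all tested genes were called. Those losses are therefore not particular to these 3 genes. Without sgCtrl liver 7.1, 394 of 17461 genes were called.

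**Figure D1:**
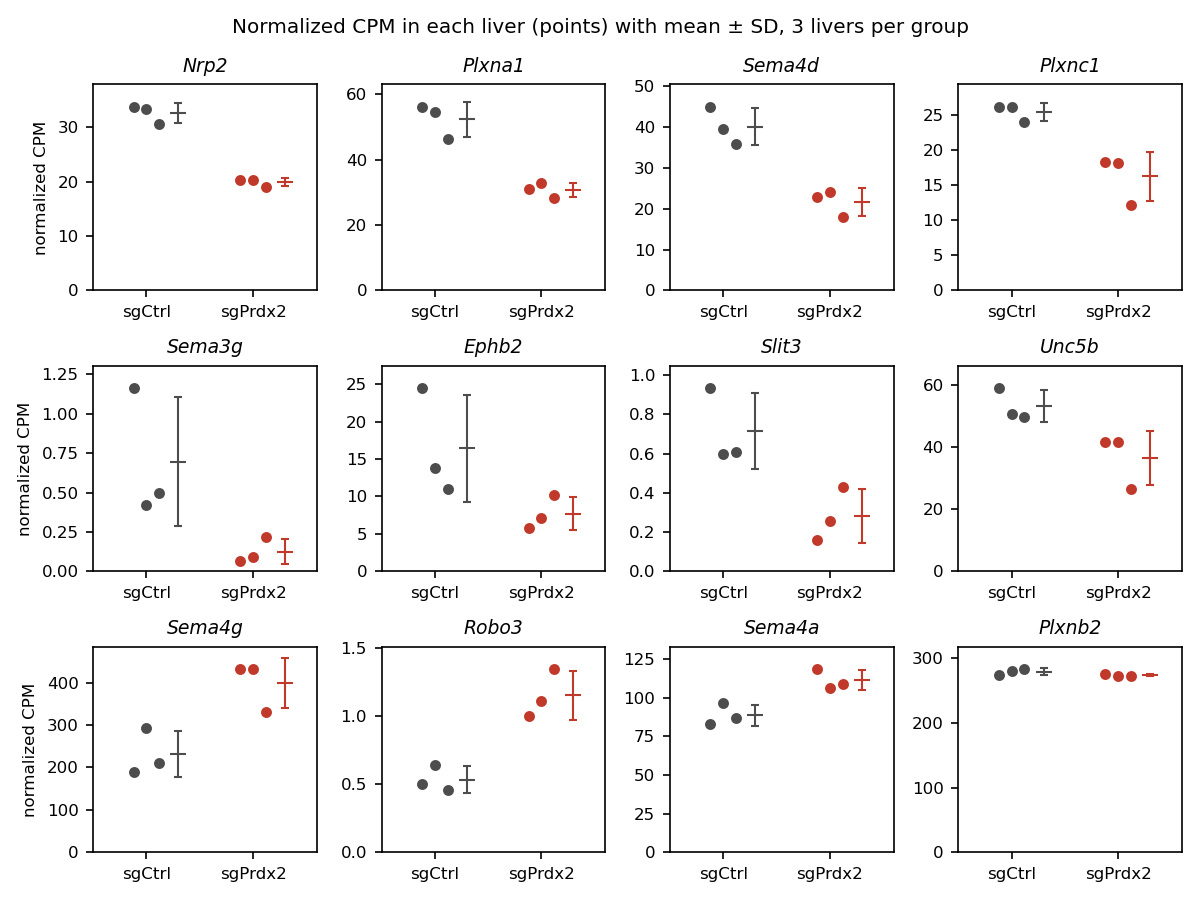
Normalized CPM of 12 guidance genes, with 1 panel per gene and a y axis from 0. Points are the 3 livers of each group (gray sgCtrl, red sgPrdx2), and the bar beside them is the mean ± SD. Nrp2, Plxna1 and Sema4d have all sgPrdx2 livers below all sgCtrl livers, Sema4g and Robo3 have them above, and Plxnb2 stays between 272 and 284 CPM.

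Promoter sequence is shown for the called genes with an entry in the RefSeq promoter table (GRCm38.p6) and for Sema3g, the member with the largest fitted decrease, to show how unlike the sequences printed are in base composition. Of the 67 members, 58 had at least 1 annotated start in that table, with 74 starts in all, and Plxna1 had no entry. Each line gives the 100 bases before the start and nearest to it that lie in no exon of GENCODE M21, ending 0 to 119 bases before the start, 5′ to 3′ on the strand of the gene. Capitals mark matches on either strand to GGGCGG (the GC box) or to CCAAT, the box of that name, and the other letters searched, TATAAA (from the TATA box), CACGTG (E-box) and TGANTCA (AP-1 site), had no match in these stretches. Sema4d has 3 starts, all within the span of the gene.
Nrp2, chr1:62703185-62703284, plus strand: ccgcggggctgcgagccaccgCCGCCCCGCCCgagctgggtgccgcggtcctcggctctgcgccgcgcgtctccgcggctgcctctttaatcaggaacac
Sema4d start 1, chr13:51748920-51749019, minus strand: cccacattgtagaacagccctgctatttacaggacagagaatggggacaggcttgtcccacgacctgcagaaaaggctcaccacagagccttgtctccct
Sema4d start 2, chr13:51756803-51756902, minus strand: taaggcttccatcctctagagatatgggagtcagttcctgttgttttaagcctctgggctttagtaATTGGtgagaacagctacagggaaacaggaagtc
Sema4d start 3, chr13:51739447-51739546, minus strand: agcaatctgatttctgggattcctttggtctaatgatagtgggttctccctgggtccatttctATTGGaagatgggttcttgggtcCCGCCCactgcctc
Sema3g, chr14:31217760-31217859, plus strand: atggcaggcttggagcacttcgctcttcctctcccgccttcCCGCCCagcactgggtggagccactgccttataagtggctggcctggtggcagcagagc

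The Nrp2 stretch was 76.0% G or C, against 54.0%, 45.0% and 50% for the 3 Sema4d starts and 64.0% for Sema3g. The stretches end at unlike distances before the start, 32 bases for Nrp2, 109, 119 and 0 for Sema4d and 13 for Sema3g. These shares are therefore not those of like positions. Over the 250 bases before the start, a GC box was found in 52 of the 74 member promoters (70.3%), against 32.7% of all 32851 promoters of that table. TATAAA was found in 2 member promoters (2.70%, against 12.4% of all), CCAAT in 27.0% (against 33.8%), CACGTG in 5.41% (against 6.02%) and TGANTCA in 4.05% (against 6.75%). These matches describe the letters in a window and are not binding sites, and several members have more than 1 start.

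Over all 58 tested members, 44 had a fitted log2 fold change below 0 (75.9%), against 51.7% of all tested genes, and the median was -0.39 against -0.02 for all genes. At an unadjusted p under 0.05 there were 28 members, 22 lower and 6 higher, which is 48.3% of the members against 24.9% of all genes. The 3 sgPrdx2 livers lay all above or all below the 3 sgCtrl livers in 32 members (55.2%, 25 lower and 7 higher), against 34.2% of all genes (17.5% lower and 16.7% higher). Most of these were semaphorin, plexin and neuropilin genes (23 of 31, 74.2%). The share was 31.25% of the ephrin and Eph genes (5 of 16) and 25% of the netrin and Unc5 genes (1 of 4), no higher than that of all genes. For the Slit and Robo genes it was 42.9% (3 of 7). The direction was alike for ligands and receptors, with 24 of 32 ligands and 20 of 26 receptors lower, and medians of -0.41 and -0.39. Under scaling to 6 housekeeping genes, 5 of which themselves had fitted values above 0 under TMM, the median of all genes moved to -0.38 and 52 of 58 members were lower (89.7%, against 81.5% of all genes), and the distance of the member median from that of all genes was -0.36 in place of -0.37. With the length and GC correction that distance was -0.31, and 42 of 58 members were lower (72.4%, against 48.6% of all genes). An unadjusted p under 0.05 was then found in 23 members (39.7%, against 26.8% of all genes). Of the 58 members, 44 kept 1 direction in every setting they could be fitted in.

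**Figure D2:**
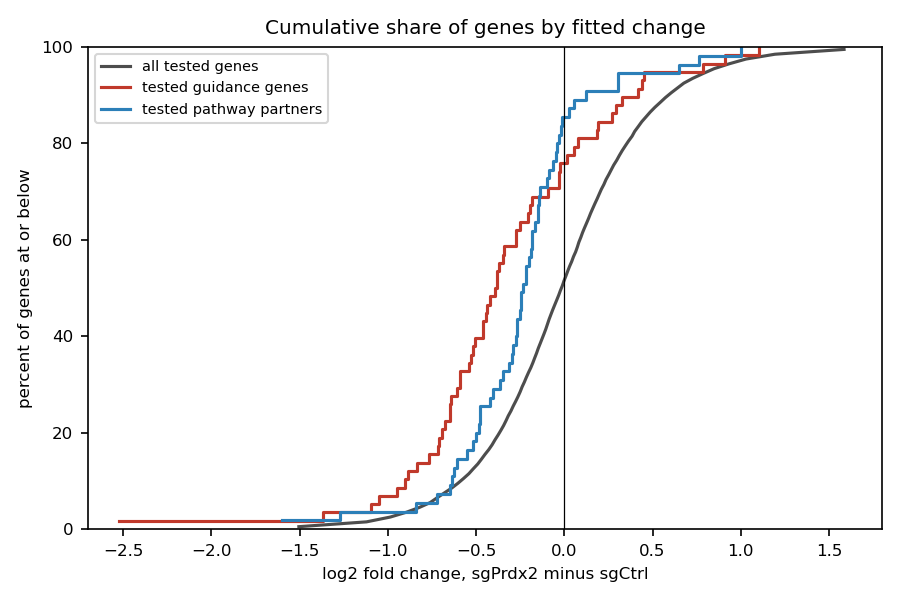
Cumulative percent of genes (y axis) at or below each log2 fold change, sgPrdx2 minus sgCtrl (x axis), for all 17032 tested genes (gray), the 58 tested guidance genes (red) and 55 tested pathway partners (blue). At 0 the red line has reached 75.9% and the gray line 51.7%, and on the right the red line ends at 1.1.

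The levels of the tested members, compared per length as mean CPM per kb of exon, ran from 0.0264 (Sema3e) to 36.3 (Sema4g). Sema4g was followed by Plxnb2 (35.8), Efna1 (28.4), Sema4a (18.5), Epha1 (14.1), Plxnb1 (12.2), Ephb4 (11.2) and Plxnd1 (11.0). Sema4g and Plxnb2 changed places between the groups, with 26.7 and 36.1 CPM per kb in sgCtrl and 46.0 and 35.4 CPM per kb in sgPrdx2 livers. The called genes were in the middle of the order, at 2.22 (Nrp2), 4.59 (Plxna1) and 4.02 (Sema4d) CPM per kb, and the Slits were near its end, at 0.0823 to 0.140 CPM per kb.

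**Figure D3:**
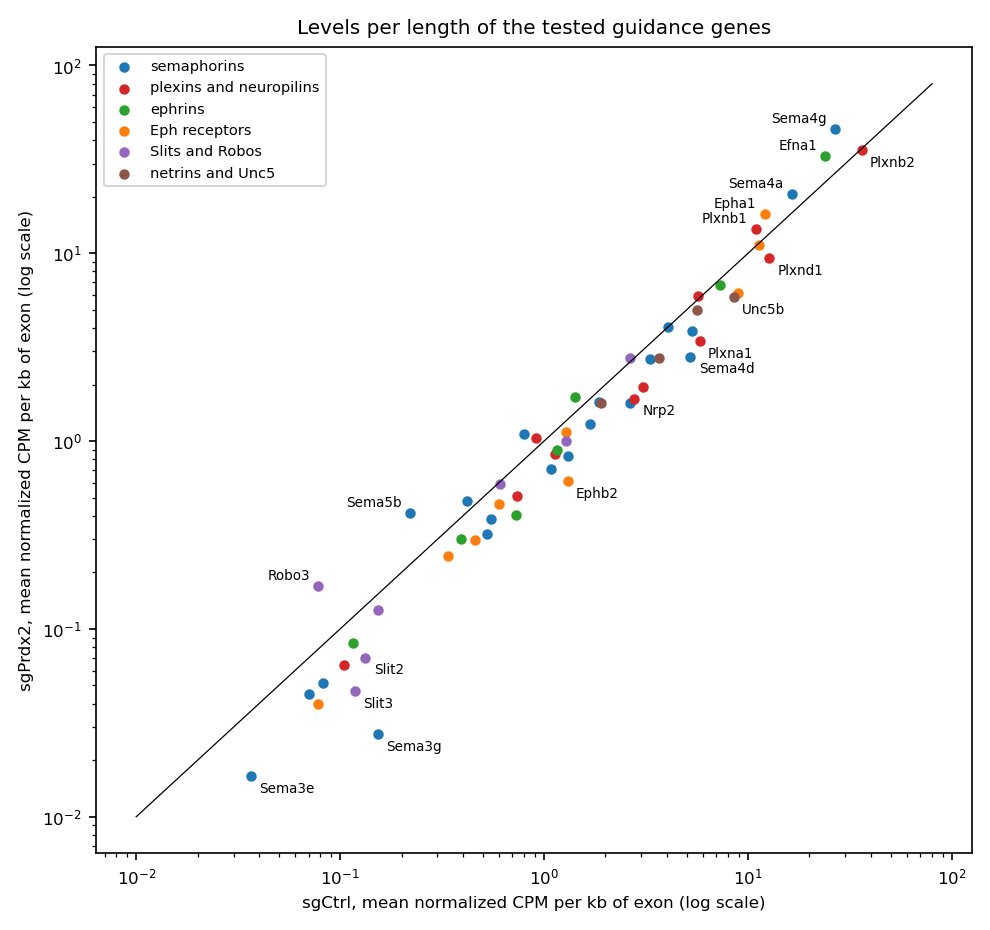
Mean normalized CPM per kb of exon of each tested guidance gene in sgCtrl (x axis) and sgPrdx2 livers (y axis), both on log scales, colored by family, with the line of equal levels. Most points lie under the line. Sema4g, Efna1, Sema4a, Epha1 and Plxnb1 lie above it at high levels (Sema4a and Plxnb1 not so under housekeeping scaling), and Sema3g and Slit3 lie farthest below it at low levels.

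Among the secreted class 3 semaphorins, 6 of 7 members were lower, with a median log2 fold change of -0.65 and none called. Groups did not overlap in 5 (71.4%, against 34.2% of all genes), and 4 had an unadjusted p under 0.05 (57.1%, against 24.9%). Other settings called Sema3d (DESeq2, adjusted p = 0.0294), Sema3f (housekeeping scaling, 0.0496) and Sema3g. Sema3f, a ligand that binds through Nrp2, had the highest level per kb of this class. Its levels were 32.9, 24.1 and 26.1 CPM in the sgCtrl livers and 20.7, 19.9 and 19.7 CPM in the sgPrdx2 livers. The sgPrdx2 livers were all lower and nearly equal (log2 fold change -0.46, SE 0.14, adjusted p = 0.105). Sema3g, a vascular semaphorin, was counted with 51, 19 and 26 reads in the sgCtrl livers and 3, 5 and 7 reads in the sgPrdx2 livers. The sgPrdx2 livers were all lower, with liver 1.1 at the smallest number taken as detected and sgCtrl liver 5.1 well above the other two sgCtrl livers. Its fitted log2 fold change was -2.52 (SE 0.58, adjusted p = 0.0575), and -1.94 without sgCtrl liver 5.1. It was called lower under housekeeping scaling (adjusted p = 0.0349), without a filter (0.0196) and with the length and GC correction (0.0471), and DESeq2 gave it no adjusted p. Sema3d had 4.55, 4.45 and 4.49 CPM against 2.62, 3.40 and 2.27 CPM (log2 fold change -0.69, SE 0.20, adjusted p = 0.0891). Sema3c, which acts in vessel and outflow tract patterning, had 9.94, 6.61 and 6.51 CPM against 5.49, 5.47 and 4.30 CPM (log2 fold change -0.59, SE 0.22, adjusted p = 0.148). Neither gene had overlapping groups. Sema3e, a ligand that binds Plxnd1 without a neuropilin, had 12 to 20 reads in sgCtrl and 2 to 14 in sgPrdx2 livers (log2 fold change -1.05, adjusted p = 0.217), Sema3a overlapped between groups (log2 fold change -0.65), and Sema3b was nearly equal (0.01, and -0.39 under housekeeping scaling).

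The membrane semaphorins, classes 4 to 7, ran both ways. Of 13 members, 8 were lower and 5 higher, and Sema4d was called. Groups did not overlap in 11 (84.6%, against 34.2% of all genes), and 9 had an unadjusted p under 0.05 (69.2%, against 24.9%). Sema4g, the most highly expressed member per kb, had 189, 292 and 211 CPM in the sgCtrl livers and 433, 432 and 330 CPM in the sgPrdx2 livers. All sgPrdx2 livers were higher than all sgCtrl livers. The mean was 231 ± 54.0 CPM against 398 ± 59.3 CPM (SD, n = 3 each), a log2 fold change of 0.79 (SE 0.20, adjusted p = 0.0725, edgeR). It was called higher by DESeq2 (adjusted p = 0.00458), without a filter on low counts (0.0431) and with the length and GC correction (0.0468), and its log2 fold change was 0.43 under housekeeping scaling (adjusted p = 0.261). Sema5b, a transmembrane semaphorin with thrombospondin repeats, had 1.78, 1.78 and 1.1 CPM against 4.31, 2.35 and 2.09 CPM. No overlap was seen, and sgPrdx2 liver 1.1 was far above the other two livers of its group (log2 fold change 0.91, SE 0.34, adjusted p = 0.154). Sema4a, a ligand of Plxnb receptors, Plxnd1 and Timd2, had 82.9, 96.3 and 87.0 CPM against 119, 106 and 109 CPM, a log2 fold change of 0.33 (adjusted p = 0.164) that was -0.04 under housekeeping scaling. Sema6c was also higher without overlap (0.44, adjusted p = 0.161, and 0.06 under housekeeping scaling).

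On the lower side, Sema4c, a ligand of Plxnb2, had 11.9, 12.6 and 11.8 CPM in the sgCtrl livers and 7.95, 9.15 and 4.88 CPM in the sgPrdx2 livers. The 3 sgPrdx2 livers were all lower, with liver 3.2 lowest (log2 fold change -0.71, SE 0.22, adjusted p = 0.110, and 0.0366 by DESeq2). Exons of D430040D24Rik on the other strand cover 7.27% of the exon length of Sema4c. Sema5a, the relative of Sema5b, had 12.2, 9.43 and 9.21 CPM against 7.34, 8.10 and 6.2 CPM, thus in the other direction from Sema5b (log2 fold change -0.51, SE 0.18, adjusted p = 0.134). Sema6a, Sema4b, Sema6d and Sema6b were lower without overlap too, with fitted values of -0.44 (adjusted p = 0.106, and 0.0473 under housekeeping scaling), -0.28 (adjusted p = 0.182), -0.65 (adjusted p = 0.254) and -0.20 (adjusted p = 0.418). The groups overlapped for Sema4f (-0.59, adjusted p = 0.379) and for Sema7a, the membrane-anchored class 7 member (0.19, adjusted p = 0.644, and -0.16 under housekeeping scaling).

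**Figure D4:**
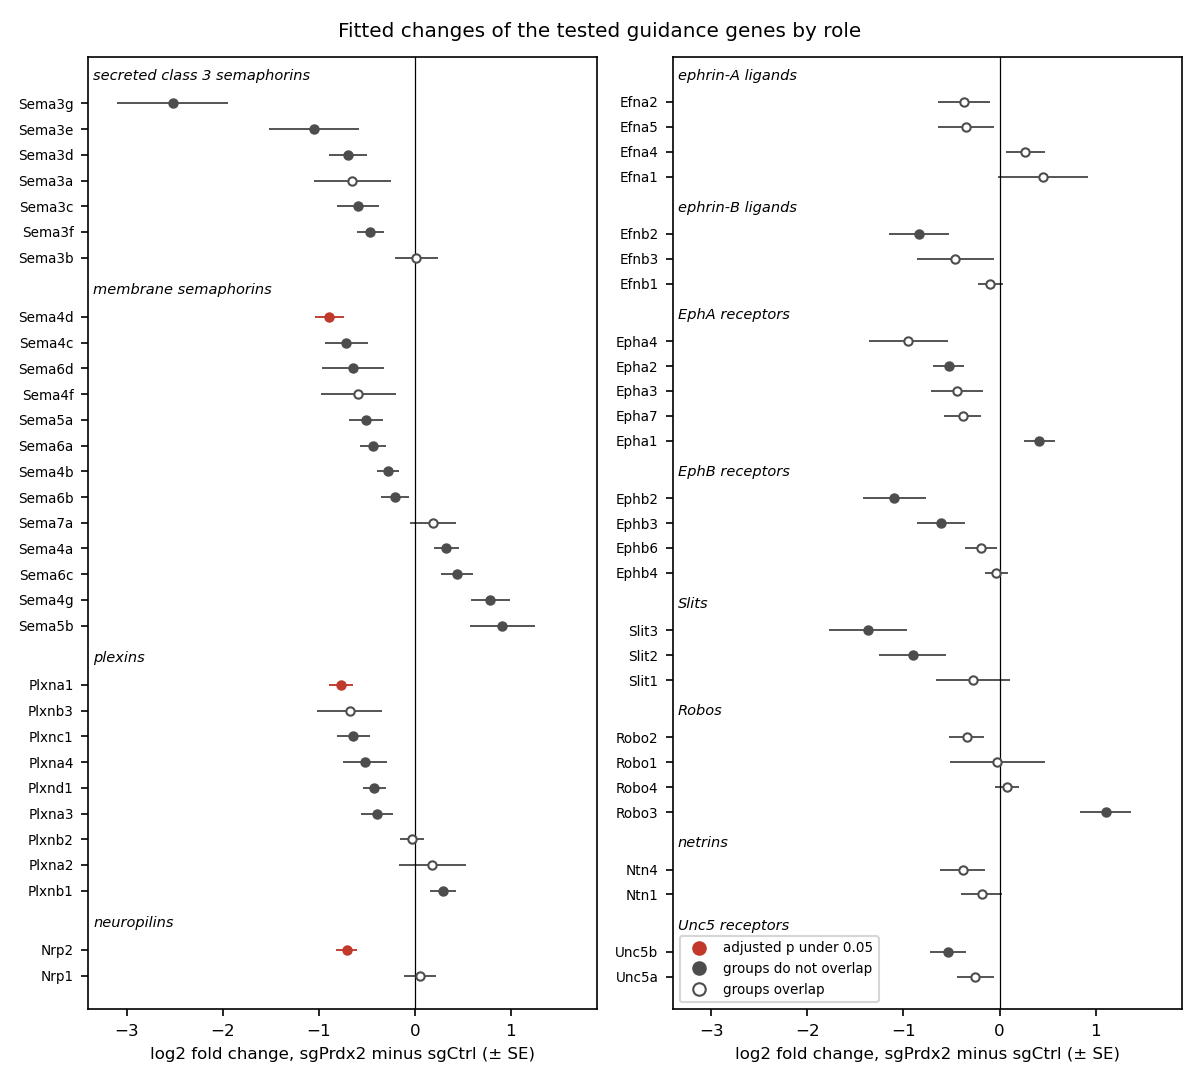
Fitted log2 fold changes (x axis, sgPrdx2 minus sgCtrl) of the 58 tested guidance genes, by role, with bars of ± SE. Red points have an adjusted p under 0.05, filled gray points have groups without overlap, and open points have overlapping groups. The red points are Sema4d, Plxna1 and Nrp2, and the membrane semaphorins spread to both sides of 0, from -0.89 to 0.91.

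Of the plexins, the receptors of semaphorins, 7 of 9 were lower and Plxna1 was called. In 6 of them (66.7%, against 34.2% of all genes) the groups did not overlap. Plxnc1, the receptor of Sema7a, had 26.2, 26.2 and 24.0 CPM in the sgCtrl livers and 18.3, 18.2 and 12.3 CPM in the sgPrdx2 livers. The groups were apart, with liver 3.2 lowest (log2 fold change -0.64, SE 0.17, adjusted p = 0.0772), and the gene was called by DESeq2 (adjusted p = 0.0195), with the length and GC correction (0.0466) and without sgPrdx2 liver 3.2. Plxnd1, an endothelial plexin, had 90.3, 98.5 and 88.3 CPM against 67.5, 69.1 and 70.3 CPM, and the groups did not overlap (log2 fold change -0.42, SE 0.12, adjusted p = 0.0864), with calls by DESeq2 (0.0170) and under housekeeping scaling. Plxnb2, the plexin with the highest level per kb, had 273, 280 and 284 CPM against 275, 273 and 272 CPM. Its log2 fold change was -0.03 (SE 0.12, adjusted p = 0.898), and -0.40 under housekeeping scaling, close to the shift of all genes. Plxnb1, the receptor of Sema4d, was higher in all sgPrdx2 livers (101, 110 and 105 CPM against 134, 139 and 113 CPM, log2 fold change 0.29, adjusted p = 0.225), but -0.06 under housekeeping scaling. Plxna4 and Plxna3 were lower without overlap (-0.52 and -0.39, adjusted p = 0.201 and 0.190), while groups overlapped for Plxnb3 (-0.68) and for Plxna2 (0.18, and -0.12 under housekeeping scaling). Nrp1, the other neuropilin, had 49.1, 70.0 and 48.6 CPM against 59.2, 54.2 and 60.9 CPM. Its groups overlapped, unlike those of Nrp2 (log2 fold change 0.06, SE 0.17, adjusted p = 0.857, and -0.33 under housekeeping scaling).

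None of the 16 tested ephrin and Eph genes was called, and 13 of them were lower (median log2 fold change -0.38). At an unadjusted p under 0.05 there were 6 (37.5%, against 24.9% of all genes), and Ephb2 was called in other settings. The ephrin-A ligands, which are held to the membrane by a lipid anchor, ran both ways with overlapping groups. Efna1, with the highest level per kb of its class, had 15.9, 51.8 and 63.7 CPM in the sgCtrl livers and 62.5, 78.7 and 38.8 CPM in the sgPrdx2 livers. The SD within each group (24.9 and 20.0 CPM) was wider than the distance between the means (43.8 and 60.0 CPM), with sgCtrl liver 5.1 far below the rest (log2 fold change 0.45, SE 0.47, adjusted p = 0.574). Efna2 had 0.891, 0.712 and 0.894 CPM against 0.501, 0.721 and 0.706 CPM (log2 fold change -0.37, adjusted p = 0.423). Efna5 was at -0.35 and Efna4 at 0.27 (-0.12 under housekeeping scaling). Exons of 4731419I09Rik on the other strand cover 10.5% of the exon length of Efna4. All 3 ephrin-B ligands, which are transmembrane proteins, were lower. Efnb2, known from arterial endothelium, had 6.31, 4.72 and 3.90 CPM against 3.03, 3.62 and 1.63 CPM. The groups did not overlap, although sgCtrl liver 7.2 and sgPrdx2 liver 1.3 were close (log2 fold change -0.84, SE 0.31, adjusted p = 0.156). Efnb1, the ephrin-B with the highest level per kb, had 24.7, 26.7 and 23.9 CPM against 25.1, 25.3 and 20.0 CPM with overlap (-0.09, adjusted p = 0.686, and 0.02 without sgPrdx2 liver 3.2), and Efnb3 was at -0.46 with 9 to 27 reads per liver.

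Among the EphA receptors, 4 of the 5 tested were lower and Epha1 was higher. Epha2, a receptor of epithelial cells, had 35.5, 49.6 and 39.5 CPM in the sgCtrl livers and 30.5, 30.9 and 24.9 CPM in the sgPrdx2 livers. All sgPrdx2 livers were lower (log2 fold change -0.53, SE 0.16, adjusted p = 0.104). Epha1, with the highest level per kb of the Eph genes, had 55.1, 45.4 and 41.7 CPM against 71.5, 55.1 and 63.1 CPM. The highest sgCtrl and the lowest sgPrdx2 liver were almost equal, although the groups did not overlap (log2 fold change 0.42, SE 0.16, adjusted p = 0.158, and 0.04 under housekeeping scaling). Exons of Zyx on the other strand cover 6.01% of its exon length. Epha4 had 36, 33 and 17 reads against 17, 16 and 9 reads, with overlap in CPM (log2 fold change -0.95, SE 0.41, adjusted p = 0.200), and Epha7 and Epha3 were at -0.38 and -0.44 with overlap. All 4 tested EphB receptors were lower. Ephb2, which binds ephrin-B ligands, had 24.5, 13.7 and 11.1 CPM against 5.76, 7.19 and 10.2 CPM. The groups did not overlap, and sgCtrl liver 5.1 was far above the other livers (log2 fold change -1.1, SE 0.33, adjusted p = 0.0993). It was called by DESeq2 (adjusted p = 0.0109), without a filter and under housekeeping scaling, and its log2 fold change was -0.69 without sgCtrl liver 5.1. Ephb3 had 3.11, 2.96 and 3.04 CPM against 2.03, 2.55 and 1.35 CPM, without overlap (log2 fold change -0.61, SE 0.25, adjusted p = 0.185). Ephb4, a venous endothelial receptor of Efnb2 and the EphB with the highest level per kb, had 52.9, 50.3 and 54.1 CPM against 54.9, 51.6 and 47.3 CPM, with overlap (log2 fold change -0.03, SE 0.12, adjusted p = 0.881, and 0.03 without sgPrdx2 liver 3.2). Ephb6, a receptor without kinase activity, was at -0.20 (adjusted p = 0.491).

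The Slits were low in level, and all 3 were lower in fitted value. None was called, and 2 had an unadjusted p under 0.05 (66.7%, against 24.9% of all genes). Slit3 was counted with 41, 27 and 32 reads in the sgCtrl livers and 7, 14 and 14 reads in the sgPrdx2 livers. All sgPrdx2 livers were lower (0.937, 0.601 and 0.609 CPM against 0.159, 0.259 and 0.430 CPM, log2 fold change -1.37, SE 0.41, adjusted p = 0.0978). It was called under housekeeping scaling (adjusted p = 0.0423), and DESeq2 gave it no adjusted p. Slit2, the best known Robo ligand, had 2.65, 3.49 and 4.01 CPM against 1.89, 2.51 and 0.952 CPM. Its groups were apart by a narrow margin, with liver 3.2 lowest (log2 fold change -0.91, SE 0.34, adjusted p = 0.160). Slit1 had 1.42, 0.712 and 0.609 CPM against 0.934, 0.721 and 0.584 CPM, and its direction rested on sgCtrl liver 5.1 (log2 fold change -0.27, SE 0.38, and 0.19 without that liver). The summed level of the Slits was 4.80 to 5.23 CPM in sgCtrl and 1.97 to 3.49 CPM in sgPrdx2 livers.

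The Robo receptors ran both ways, with 2 lower and 2 higher. Robo3, a divergent Robo, had 22, 29 and 24 reads in the sgCtrl livers and 44, 60 and 44 reads in the sgPrdx2 livers. In CPM these were 0.503, 0.645 and 0.457 against 1.0, 1.11 and 1.35, with all sgPrdx2 livers higher (log2 fold change 1.1, SE 0.27, adjusted p = 0.0650). It was called higher by DESeq2 (adjusted p = 0.0254) and with the length and GC correction (0.0451), and its log2 fold change stayed between 0.72 and 1.26 in all settings. Robo4, an endothelial Robo with the highest level per kb of its class, had 14.7, 13.5 and 13.7 CPM against 16, 14.9 and 13.3 CPM, with overlap (log2 fold change 0.08, SE 0.13, adjusted p = 0.735, and -0.28 under housekeeping scaling). Robo2 was at -0.34 (adjusted p = 0.288), and Robo1 varied so widely within groups, from 6.05 to 16.7 CPM in sgCtrl and 4.24 to 13.9 CPM in sgPrdx2 livers, that its log2 fold change of -0.02 had an SE of 0.49.

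The netrin and Unc5 genes tested were all lower in fitted value, and none was called by edgeR or DESeq2. Of these 4, 1 had an unadjusted p under 0.05 (25%, against 24.9% of all genes). Unc5b, a vascular netrin receptor, had 59.2, 50.7 and 49.8 CPM in the sgCtrl livers and 41.7, 41.6 and 26.6 CPM in the sgPrdx2 livers. The groups did not overlap (log2 fold change -0.54, SE 0.19, adjusted p = 0.139). Ntn1 had 39.3, 33.1 and 34.1 CPM against 35.1, 37.3 and 21.1 CPM. Only liver 3.2 was below the sgCtrl range, and the log2 fold change of -0.19 (SE 0.21, adjusted p = 0.613) was 0.04 without it. Ntn4, a netrin of basement membranes, had 15, 13.0 and 12.8 CPM against 12.9, 11.6 and 6.73 CPM (log2 fold change -0.38, SE 0.23, adjusted p = 0.344), and Unc5a was at -0.25 with overlap.

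The 9 members that did not pass the filter on low counts were Epha5, Epha6, Epha8, Epha10 and Unc5d, with 0 reads in every liver, and Efna3, Ephb1, Ntn5 and Unc5c, with totals of 6, 29, 13 and 9 reads over all 6 livers. A count of 0 allows up to 0.0555 to 0.0921 CPM in a single library, depending on its depth. Exons of Sec1 and of Gm15998 on the other strand cover 23.4% of the exon length of Ntn5 and 14.1% of that of Efna3, so that their few reads are uncertain as well.

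Genes that take part in signaling from these receptors, or that serve as their other ligands and co-receptors, were read from lists of 58 partners, of which 55 were tested. Their fitted values were lower in 47 and higher in 8 (85.5% lower, median -0.23, against 51.7% and -0.02 for all genes). With the length and GC correction 38 of 55 were lower, and without sgPrdx2 liver 3.2 it was 41 of 56. Of the partners, 2 were called, both higher (3.64%, against 3.33% of all genes). Timd2, a receptor of Sema4a, rose from 37.3, 45.4 and 38.3 CPM to 85.1, 66.3 and 90.4 CPM (log2 fold change 1.0, SE 0.16, adjusted p = 0.0358, edgeR). Farp2, an exchange factor that acts below plexins, rose from 11.0, 11.0 and 12.7 CPM to 19.5, 19.0 and 15.9 CPM (log2 fold change 0.65, SE 0.14, adjusted p = 0.0496, edgeR). Both are partners of semaphorin and plexin signaling, of which 15 of 20 tested were lower. Neither call was made without sgCtrl liver 5.1, sgCtrl liver 7.2, sgPrdx2 liver 1.1 or sgPrdx2 liver 1.3, where 0 of all tested genes were called. That of Farp2 was also lost without sgCtrl liver 7.1 and under upper-quartile normalization. Under housekeeping scaling neither was called, and the 7 partners called there, Cd72, L1cam, Chl1, Mical1, Vav3, Adam10 and Vasp, were others.

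Of the Eph and ephrin partners, 12 of 14 were lower and none was called (5 at an unadjusted p under 0.05, 35.7%, against 24.9% of all genes). DESeq2 called Ngef, Vav3, Nck2, Adam10 and Abl2. In the edgeR fit Ngef was higher (log2 fold change 0.76, adjusted p = 0.0886) and the others were lower. The exchange factor Vav3 had 3.88, 5.20 and 3.58 CPM against 1.89, 2.20 and 1.11 CPM (log2 fold change -1.27, SE 0.29, adjusted p = 0.0555), and the protease Adam10, which sheds ephrins, had 61.5, 63.4 and 59.2 CPM against 45.6, 45.9 and 40.6 CPM (-0.48, SE 0.12, adjusted p = 0.0638). All 12 Slit and Robo partners were lower and none was called, nor was any by DESeq2. At an unadjusted p under 0.05 there were 2 (16.7%, against 24.9% of all genes). The actin regulators Vasp (-0.36, adjusted p = 0.114) and Enah (-0.48, adjusted p = 0.127) had the smallest p. Of the 9 tested netrin and repulsive guidance molecule partners, 8 were lower and none was called by edgeR or DESeq2 (0 at an unadjusted p under 0.05), with Neo1, the receptor neogenin, at -0.30 (adjusted p = 0.250) and Rgmb at -0.61 (adjusted p = 0.321). Dcc, the main netrin receptor of neurons, had no read in any liver, and Nrcam and Dpysl5 did not pass the filter.

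Cell type markers moved with the groups as well. The summed level of 12 hepatocyte markers was 81668 to 88358 CPM in sgCtrl and 142631 to 188179 CPM in sgPrdx2 livers. Of these, 12 of 12 were higher and 6 called (50%, against 3.33% of all genes), Uox, Ttr and Cyp2e1 among them. The sums of the other lists were lower in sgPrdx2 livers without overlap for 16 stellate cell and myofibroblast markers (2551 to 2899 against 1854 to 1933 CPM, 14 of 16 lower, none called by edgeR and 10 at an unadjusted p under 0.05), 14 endothelial markers (617 to 632 against 502 to 566 CPM, 12 of 14 lower, Pecam1 called), 10 cholangiocyte markers (1789 to 2017 against 1347 to 1533 CPM, 9 of 10 lower, none called by edgeR and 5 at an unadjusted p under 0.05), 12 macrophage markers (4109 to 4804 against 2759 to 3556 CPM, 12 of 12 lower, Gpnmb and Mpeg1 called) and 12 lymphocyte and neutrophil markers (282 to 317 against 154 to 175 CPM, 11 of 12 lower, Itgb2 and Cd8a called). At an unadjusted p under 0.05 were 62.5% of the stellate cell, 42.9% of the endothelial and 50% of the cholangiocyte list. The share was 41.7% of the macrophage and 25% of the lymphocyte and neutrophil list, against 24.9% of all genes. Called were 7.14% of the endothelial list and 16.7% of each of the 2 leukocyte lists, against 3.33% of all genes. Single markers without overlap were 62.5% of the stellate cell, 57.1% of the endothelial and 50% of the cholangiocyte list. They were 33.3% of the macrophage and 25% of the lymphocyte and neutrophil list, against 34.2% of all genes. Itgb2 (189 against 90.8 CPM) and Ptprc (66.6 against 36.3 CPM) were the largest parts of the last sum. Its markers Cd3e, Cd3g, Cd4, Cd79a, Ms4a1, Nkg7, Ncr1, S100a8 and S100a9 overlapped. The neuron and Schwann cell markers were near the bottom of the range and overlapped (14.6 to 16.8 against 13.0 to 17.4 CPM, 4 of 5 tested lower), and Sox10, S100b and Snap25 did not pass the filter. No defining marker of the other lists was at 0 in all livers. The part of these shifts in the values of Nrp2, Plxna1, Sema4d and the other guidance genes was not tested, and in RNA of whole liver, fewer cells of a type and less RNA per cell cannot be told apart.

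**Figure D5:**
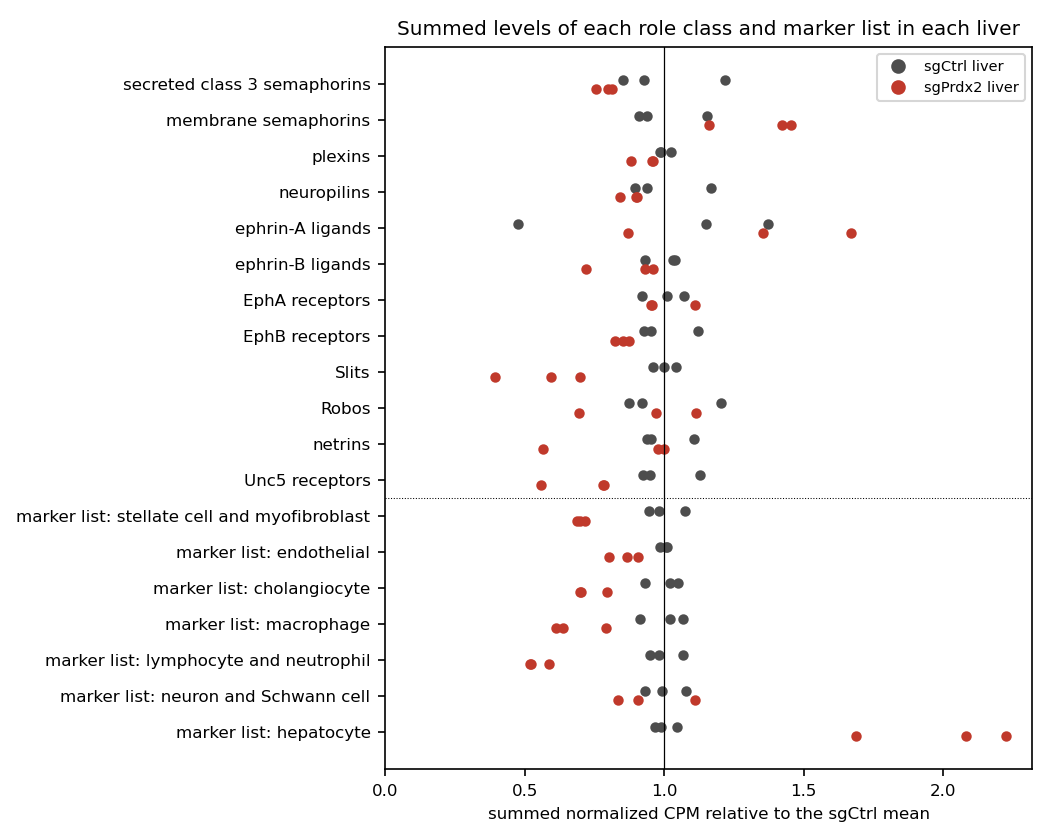
Summed normalized CPM of each guidance role class (above the dotted line) and each marker list (below it) in each liver, relative to the mean of the 3 sgCtrl livers (x axis, from 0). Each point is 1 liver (gray sgCtrl, red sgPrdx2). The secreted class 3 semaphorins, plexins, EphB receptors, Slits and Unc5 receptors have all sgPrdx2 livers below all sgCtrl livers, the membrane semaphorins have them above by a narrow margin, and the hepatocyte list stands apart on the right.

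Within the guidance genes, the livers of a group were not alike. sgPrdx2 liver 3.2 had the lowest CPM of all 6 livers in 33 of 58 tested members and sgCtrl liver 5.1 the highest in 26. Leaving out liver 3.2 gave 41 lower members and a median of -0.31 (4 called). Leaving out liver 5.1 gave 45 lower members and a median of -0.32 (none called, nor any other gene). The sum over the membrane semaphorins, of which Sema4g makes up the largest part, was 404 to 512 CPM in sgCtrl and 516 to 646 CPM in sgPrdx2 livers, above the sgCtrl range although 8 of its 13 members were lower.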

How the data were processed

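RNA of 3 sgCtrl and 3 sgPrdx2 livers was sequenced, and groups were taken from the sample labels. The authors deposited counts of reads per gene and liver, as whole numbers without normalization. The submitters' processing notes name HISAT2, HTSeq, DESeq2 and GRCm38. Versions, the annotation and the strand setting are not given in the sources used here. A second table holds the authors' DESeq2 comparison (mean, fold changes, errors and p-values) and was not used.

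Counts were analyzed in R 4.3.3 with edgeR 4.0.16 (filterByExpr, minimum count 10, 17032 genes left, TMM factors of 1.12 to 1.17 for sgCtrl, 0.805 to 0.951 for sgPrdx2, quasi-likelihood test, no covariate). A gene was called when its p, adjusted by Benjamini and Hochberg over all tested genes, was under 0.05. Biological variation (BCV) was 0.213. Each SE is the size of the log2 fold change over the root of the F statistic. With 3 livers against 3, an exact permutation test of a single value cannot go below p = 0.1, so none is printed. Exon lengths, positions and overlaps come from GENCODE M21 (GRCm38), with 97.3% of tested symbols matched. Alternatives were RLE, upper-quartile and housekeeping scaling (6 genes), DESeq2 1.42.0, no filter, at least 10 counts in every liver, a length and GC correction, and leaving out each liver. The fits were run on simulated counts with 200 genes changed 4-fold. There edgeR recovered 183 of them and called 19 other genes, and DESeq2 recovered 181 and called 45 others. Recovery of smaller changes was not measured.

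Guidance genes, partner lists, marker lists and tests were chosen with earlier results of these data known, so p-values are given for all genes tested and none for a list. Named by rule were the called members, the member with the smallest p and that with the highest level per kb in each of 12 role classes, members with an unadjusted p under 0.05 and an absolute log2 fold change of at least 0.5, members that did not pass the filter, called partners and the 2 with the smallest p of each list, and called markers. Other members were named after their values were seen.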

Additional observations from a re-analysis of the deposited data

How the results depend on the processing

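The number of guidance genes called was 3 of 58 under RLE and upper-quartile normalization and 3 of 51 with at least 10 counts in every liver. It was 9 of 58 under housekeeping scaling (all lower) and 10 of 62 by DESeq2 (8 lower, 2 higher). It was 6 of 62 without a filter, 7 of 58 with the length and GC correction (5 lower, 2 higher), and 0 to 4 when 1 liver was left out. Nrp2, Plxna1 and Sema4d were called in 9 of 14 settings each and kept their direction in all of them. Pathway partners called were 1 under upper-quartile normalization, 7 under housekeeping scaling, 9 by DESeq2, 6 without a filter, 5 with the length and GC correction, and 0 to 3 without 1 liver. Over all genes, 567 of 17032 were called by edgeR, 989 of 17032 under housekeeping scaling and 2066 of 28631 by DESeq2. The number was 614 of 15663 with at least 10 counts in every liver, 1128 of 28631 without a filter and 997 of 16572 with the length and GC correction. It was 0 without sgCtrl liver 5.1 or 7.2 or sgPrdx2 liver 1.1 or 1.3. It was 394 without sgCtrl liver 7.1 and 619 without sgPrdx2 liver 3.2, and the cause was not tested. Members higher in sgPrdx2 livers were 6 under housekeeping scaling in place of 14, with a median of -0.74. Of 413 values of named members under alternatives, 404 kept their direction. The 9 others were Nrp1 (-0.33) and Robo4 (-0.28) under housekeeping scaling, Ntn1 without sgPrdx2 liver 3.2 (0.040, and down to -0.32 without another liver) and Slit1 without sgCtrl liver 5.1 (0.19, and down to -0.50 without another liver), together with values near 0 for Nrp1 without sgCtrl liver 5.1 (-0.029) or 7.2 (-0.035), Efnb1 (0.020) and Ephb4 (0.034) without sgPrdx2 liver 3.2, and Plxnb2 with the length and GC correction (0.063). None of these was called, and the cause was not tested. No paired analysis was possible because the mouse numbers are not shared between the groups. Depth limits Sema3g, Slit3, Robo3, Epha4 and the members that did not pass the filter, which rest on few reads.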
